A study of Arabidopsis thaliana with 20 samples.

Results

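Control root cells of Arabidopsis thaliana, accession Columbia, were amplified with either of a pair of kits and read on Affymetrix arrays. These control cells account for 6 of the 12 biological samples and 10 of the 20 arrays in the series, chosen by their sample titles. Each kit had 3 biological samples, and 1 of them (the second) was split over 3 technical arrays, which were averaged on the log2 scale so that n = 3 per kit. Each sample held about 150 laser-captured cells, or 13000000 square micrometres of section. All plants had been inoculated at 3 weeks of age with 1000 juveniles of Meloidogyne incognita, a root-knot nematode, at their second stage, and cells were captured 21 days later. The control cells came from stretches of these infested roots where no nematode was feeding, so they were not taken from uninfected plants. The other 6 samples held giant cells, the swollen feeding cells that the nematode induces, at about 80 cells a sample. The labels tie no sample to a plant, so the p-values reflect the spread among these samples alone, and that spread may in part be technical.

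WT-Ovation Pico and WT-Ovation One-Direct both copy picogram amounts of RNA into cDNA and amplify it linearly for hybridisation. RNA for Pico was first purified on a column with the PicoPure kit, whereas cells for One-Direct were caught straight in lysis buffer. The effects of the kit and of RNA purification cannot be told apart, and each kit name below stands for both. The array reports a signal per probe set, a group of short probes against 1 transcript, in arbitrary linear units scaled to a trimmed mean of about 500 on every array. Levels of different probe sets were not compared with each other as amounts of RNA.

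A root cell outside the feeding site carries a transcript population that is dominated by housekeeping functions. Messages for cytosolic ribosomal proteins are among the most abundant and are short. Chloroplast and mitochondrial genomes add transcripts that, in plants, mostly lack the long stable poly(A) tail of nuclear messages. Pseudogenes are disabled copies of genes; in Arabidopsis many of the annotated ones are remains of transposable elements, which are silenced in most root cells.

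The samples differed in quality before any gene was considered. Correlations of log2 signal between Pico samples were 0.920 to 0.935, and those between One-Direct samples were 0.741, 0.690 and 0.851, the lower values both belonging to One-Direct sample 1. Between kits the correlations were 0.611 to 0.798. One-Direct sample 1 also had the lowest median signal, 168, against 223 and 218 in the other One-Direct samples and 181, 189 and 188 in Pico. Of 10 array measures none could pass a test, because an exact two-sided permutation test of 3 against 3 cannot give a p below 0.10. The log2 signal of the 25S rRNA probe set was 14.5, 13.6 and 13.7 with One-Direct and 16.4, 15.5 and 16.3 with Pico. The 5S rRNA probe set went the other way, at 12.88, 12.77 and 12.69 with One-Direct against 6.96, 5.13 and 6.85 with Pico. The brightest 1% of probe sets took 13.7% ± 2.05 (SD, n = 3) of the summed signal with One-Direct and 20.8% ± 1.57 (SD, n = 3) with Pico. The 3'/5' signal ratio of GAPDH, a sign of how far copies reach towards the start of the message, was 4.42, 2.73 and 2.93 on the log2 scale with One-Direct and 2.39, 2.11 and 2.502 with Pico. The other GAPDH pair gave 2.22, 0.72 and 1.29 with One-Direct and 0.55, 0.80 and 0.15 with Pico, which overlap. The ratios of actin and ubiquitin overlapped between the kits as well.

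The identity of the captured tissue could be checked only in part. Of 46 marker genes sought in 9 lists, 7 were named on the array, and the lists for endodermis, xylem, meristem and root cap had 0. PYK10, a beta-glucosidase stored in the endoplasmic reticulum of root cells, was bright in every sample, at 12734, 8255 and 10190.3 with One-Direct and 21539.7, 17762 and 21868 with Pico. EXPA7, an expansin of root hairs, was dim in every sample, at 28.8, 25.5 and 14.1 with One-Direct against 7.12, 16.1 and 1.26 with Pico. LBD16, a lateral root factor of the pericycle, read 46.6, 391 and 275 with One-Direct and 263, 155 and 216 with Pico. The cortex markers JKD and AT1G62500 were too dim to be tested. SWEET11, a sucrose exporter of phloem parenchyma, read 169, 669 and 195 with One-Direct and 2329, 1428 and 986 with Pico (-2.33, SE 0.60, adjusted p = 0.04702), and this call was lost under 10 of 16 alternatives. Leaf genes stood apart in Pico sample 2. The summed signal of 7 nuclear photosynthesis genes was 1907, 1795 and 1849.9 with One-Direct, while with Pico it was 2498, 8852 and 3388. PSAE-1, a subunit of photosystem I, read 35.1, 66.7 and 48.2 with One-Direct, while the Pico samples gave 81.5, 1143 and 391. Whether cells of another type were captured in that sample was not tested.

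A probe set was called recovered when its signal was at least 200, and dim when it was under 50. Both kits recovered 6208 of 22746 probe sets (27.3%) in all 6 samples. The dehydrin AT1G54410 had the highest signal in its dimmest sample of all named protein-coding genes, with values of 32328, 16209 and 18047 for One-Direct and 65686, 50031 and 84051 for Pico. OBE1, a PHD-finger protein of root meristem formation, read 12536, 9472 and 10719 with One-Direct against 11290.4, 9333 and 9082 with Pico and differed by only 0.14 on the log2 scale (SE 0.37, adjusted p = 0.854). GRX480, a glutaredoxin of the salicylic acid response, read 8547, 11167 and 10220.1 with One-Direct against 8372, 15792 and 28541 with Pico, with overlapping kits. Organelle-encoded genes were nearly all in this class, 85 of 92 probe sets.

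Transcripts that only One-Direct recovered were much more frequent than the reverse. One-Direct alone recovered 275 probe sets (1.21%), that is, they lay at 200 or more in all its samples and under 50 in every Pico sample. Pico alone recovered 6 (0.0264%). By gene type the One-Direct class held 132 of 989 annotated pseudogenes (13.3%) and 83 of 12374 protein-coding probe sets (0.671%). The Pico class held 0 pseudogenes and 5 protein-coding genes, and its remaining probe set has no single gene listed. More probe sets were dim throughout with Pico: 4183 lay under 50 in all 3 Pico samples, of which 6.57% were recovered by One-Direct. Under 50 in all 3 One-Direct samples lay 1921, of which 0.312% were recovered by Pico. In single samples the kits were closer, with 25.5%, 19.8% and 20.6% of probe sets under 50 with One-Direct and 26.6%, 25.7% and 25.9% with Pico. How far the lower correlations among One-Direct samples bear on classes that need all 3 samples was not tested. The small Pico class depended on single libraries and cut-offs, rising to 12, 45 and 11 when One-Direct sample 1, 2 or 3 was left out and to 11 and 13 without Pico sample 1 or 2. With dim set at under 25 it held 0.

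The 5 genes that only Pico recovered are of varied function. AT1G52070, a jacalin-like lectin of a family abundant in roots, read 7.14, 18.5 and 38.2 with One-Direct and 471, 542 and 856 with Pico (-4.14, SE 0.47, adjusted p = 0.00123). DRT100, a leucine-rich repeat protein named for DNA damage tolerance, read 6.61, 37.96 and 13.8 with One-Direct against 529.6, 541 and 370.2 with Pico (-3.89, SE 0.46, adjusted p = 0.00143). RALFL34, a secreted signalling peptide that takes part in lateral root initiation, read 4.16, 36.98 and 20.4 with One-Direct against 351, 239 and 407 with Pico (-3.33, SE 0.48, adjusted p = 0.00364). In each of these genes the lowest Pico sample lay several-fold above the highest One-Direct sample, as the cut-offs that define the class require. The class was defined on the same values that were tested, so the adjusted p-values are no separate support for it. AT1G75560, a zinc-knuckle protein, read 28.9, 27.7 and 46.7 with One-Direct and 429, 693 and 560.1 with Pico (-3.51, SE 0.40, adjusted p = 0.00124). The aspartyl protease AT1G09750 was the least even, at 4.28, 33.03 and 44.6 with One-Direct and 202, 3133 and 333 with Pico, and its call was lost under 7 of 16 alternatives.

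**Figure D1:**
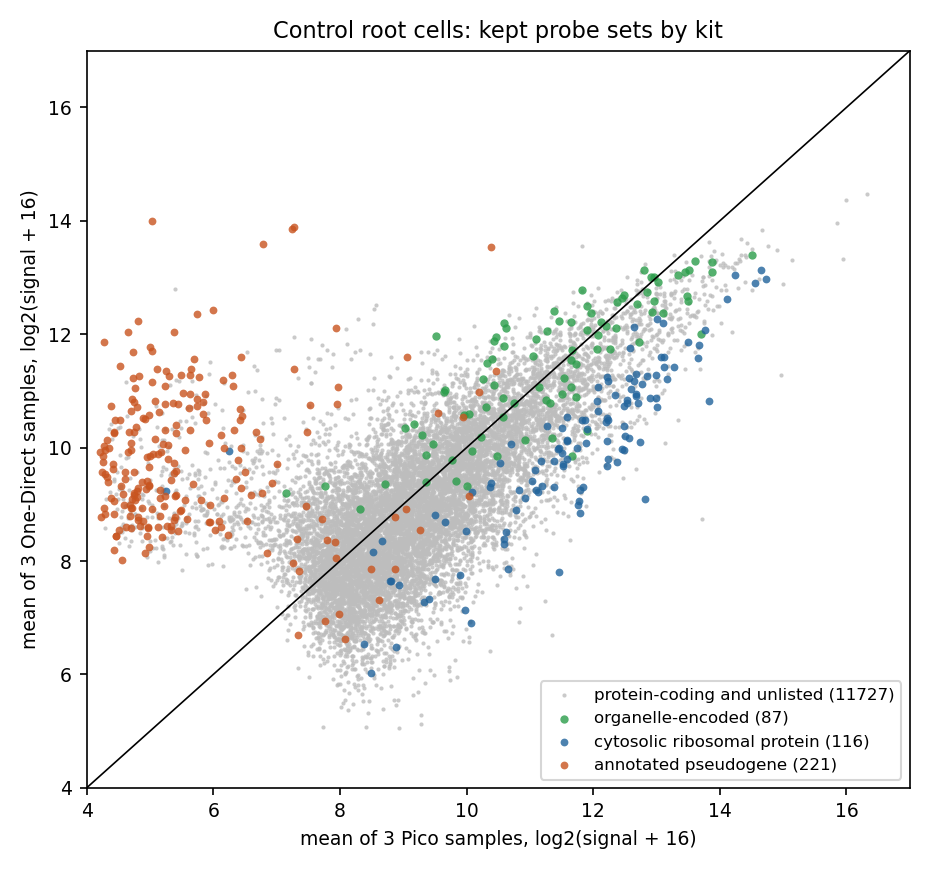
Mean log2(signal + 16) of the 3 One-Direct samples (vertical axis) against that of the 3 Pico samples (horizontal axis) for the 12151 kept probe sets of control root cells, with equality as the black line. Of the coloured groups, 221 pseudogene probe sets lie mostly far above the line at the dim end of Pico, 116 ribosomal protein genes mostly below it, and 87 organelle-encoded probe sets on both sides of it.

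Differences between kits were then tested with limma on log2(signal + 16) over the 12151 probe sets that lay above their array's median in at least 3 of the 6 samples. A probe set is called at a Benjamini-Hochberg adjusted p under 0.05, and differences are One-Direct minus Pico. Of these probe sets 1238 (10.2%) were called, 722 higher with One-Direct (5.94%) and 516 lower (4.25%). The median difference over all kept probe sets was -0.25, and -0.35 when arrays were centred on their medians. With no filter the median was 0.01, so the differences of kept probe sets below sit against a small shift towards Pico that the whole array did not show. The number of calls depended on which samples entered. Without Pico sample 1, 2 or 3 the lower calls numbered 62, 73 and 54, and the higher ones 479, 448 and 475. Without One-Direct sample 1 there were 897 higher and 902 lower calls. No called probe set was called in the opposite direction under any of these omissions. The filter also shapes the higher calls, because 653 probe sets entered through all 3 One-Direct samples with no Pico sample above the median, and 563 of these were called higher. With no filter on 22746 probe sets, 1518 were higher (6.67%) and 475 lower (2.09%).

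Messages for cytosolic ribosomal proteins were brighter with Pico. Of 131 cytosolic ribosomal protein genes on the array, 116 were kept, 50 of them were lower with One-Direct (43.1%, against 4.25% of all kept probe sets) and 2 were higher. Their median difference was -1.71, or -1.47 relative to the median of all kept probe sets, and 114 of 116 lay below 0. Without the filter, 74.8% of the 131 had all 3 One-Direct samples below all 3 Pico samples, against 14.7% of all probe sets. When 1 sample was left out, the count of lower ribosomal genes moved between 7 (without Pico sample 3) and 77 (without One-Direct sample 1). It was 9, 15, 19 and 36 without Pico sample 1, Pico sample 2, One-Direct sample 2 and One-Direct sample 3. With all 12 samples in the fit the count was 92, and with sample quality weights 87. The median stayed between -1.90 and -1.48 under all alternatives tried. Both kits recovered 97 of the 131 genes in all samples, Pico alone 0 and One-Direct alone 1. The hybridisation spikes, which are control transcripts added at hybridisation and not root RNA, were also dimmer with One-Direct. Their mean log2 signal was 13.2, 12.1 and 12.1 with One-Direct and 14.3, 13.7 and 14.1 with Pico, and the difference was -1.62 (exact permutation p = 0.1, the smallest possible). Whether the spike difference has a part in the ribosomal one was not tested.

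AT4G29410, which encodes large-subunit protein L28, read 536, 652 and 419 with One-Direct and 7597, 4929 and 10062 with Pico (-3.74, SE 0.43, adjusted p = 0.00133). AT3G11510, for small-subunit protein S14, read 347, 194 and 132 with One-Direct against 2755, 2671 and 3001 with Pico (-3.65, SE 0.45, adjusted p = 0.00163). In both genes every Pico sample lay more than 4-fold above every One-Direct sample. The 2 kept genes called higher were AT3G10950, for L37a, and AT2G39590, for an S15a isoform. AT3G10950 read 1349, 1037 and 641 with One-Direct and 63.9, 63.6 and 53.2 with Pico (3.69, SE 0.42, adjusted p = 0.00124). AT2G39590 read 1336, 408 and 365 with One-Direct against 9.34, 18.5 and 47.8 with Pico (3.98, SE 0.61, adjusted p = 0.00489). Both passed the filter through the One-Direct samples alone, so their adjusted p-values are no separate support. Without the filter, 7 of the 131 ribosomal genes on the array (5.34%) had all 3 One-Direct samples above all 3 Pico samples, against 17.7% of all probe sets. Among 95 ribosomal genes with a signal over 1000 in all Pico samples, 45 were lower with One-Direct (47.4%), against 69 of 1140 other protein-coding probe sets of that brightness (6.05%). The medians of these groups were -1.73 and -0.55. Both groups were selected for high Pico signal, which favours a lower One-Direct value in each.

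Of 8 translation factors, all kept, 1 was lower with One-Direct (12.5%, against 4.25% of all kept) and 0 higher, with a median of -1.24. The lower one was AT5G19510, a subunit of elongation factor 1B, at 3892, 2242 and 1796 with One-Direct and 10749.6, 5976 and 12367 with Pico (-1.88, SE 0.48, adjusted p = 0.0449). Its call was lost under 11 of 17 alternatives. AT4G27130, an SUI1-type initiation factor, read 1283, 2574 and 3063 with One-Direct against 6669.6, 6029 and 6761 with Pico and missed the threshold (adjusted p = 0.0632).

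Of 17 histone genes 10 were kept, 3 were lower with One-Direct (30.0%, against 4.25% of all kept), 1 was higher (10.0%, against 5.94%) and the median was -1.68. The lower histone calls fell to 1 without Pico sample 1, 2 or 3. HTB2, a histone H2B, read 347, 156 and 92.2 with One-Direct and 2218, 1659 and 2099 with Pico (-3.40, SE 0.51, adjusted p = 0.00451). HTB4, another H2B, read 1277, 837 and 1151 with One-Direct against 3589, 3736 and 3242 with Pico, and the linker histone AT1G06760 read 532, 864 and 1282 with One-Direct against 3456, 4785 and 3373 with Pico. The higher gene was MGH3, a histone H3 variant known from the male gamete, at 513, 359 and 312 with One-Direct and 46.9, 18.6 and 19.8 with Pico (3.23, SE 0.43, adjusted p = 0.00249). It passed the filter through the One-Direct samples alone. Without the filter, 11.8% of the 17 histone genes had all One-Direct samples above all Pico samples (17.7% of all probe sets) and 47.1% below them (14.7%). Of 5 kept tubulin and actin genes of 9, all 5 lay below 0 and 1 was called lower (20%, against 4.25%). It was TUB5, a beta-tubulin, at 24.6, 44.4 and 57.7 with One-Direct and 478, 377 and 266 with Pico (-2.75, SE 0.43, adjusted p = 0.00569). TUB6 and TUA6 had all One-Direct samples below all Pico samples but missed the threshold, with adjusted p of 0.0705 and 0.0739.

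Of 9 kept genes of 10 that are in common use for normalising expression, 2 were lower with One-Direct (22.2%, against 4.25% of all kept). At the lowest, 0 of them were called when 1 sample was left out. AT2G28390, the SAND family gene, read 114, 112 and 10.2 with One-Direct and 365, 404 and 409.7 with Pico (-2.43, SE 0.64, adjusted p = 0.0499). AT4G34270, a TIP41-like gene, read 188, 413 and 313 with One-Direct against 1419, 1021 and 897 with Pico (-1.85, SE 0.44, adjusted p = 0.0349). These calls were lost under 8 and 6 of 16 and 17 alternatives. GAPC2, cytosolic glyceraldehyde-3-phosphate dehydrogenase, read 1828, 2988 and 2356 with One-Direct and 5277, 5261 and 4564 with Pico (difference -1.09, adjusted p = 0.121). None of 9 glycolysis and fermentation genes was called by limma. At an unadjusted p under 0.05, 4 of the 9 were lower and 0 higher, against 3134 of all 12151 kept probe sets in either direction. The median of the 9 genes was -1.09, with 8 below 0.

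Of 6 kept genes of the abundant root list, 3 were lower with One-Direct (50%, against 4.25% of all kept): AT1G52070, MT1C and AT5G26260. This count fell to 1 at the lowest when 1 sample was left out. MT1C, a metallothionein that binds metal ions, read 26389, 12957 and 11702 with One-Direct and 66334, 49382 and 63654 with Pico (-1.90, SE 0.45, adjusted p = 0.0346). PYK10, for which the values are given above, differed by -0.99 and was not called (adjusted p = 0.153). Of 11 kept expansin and XTH genes, which loosen or remodel the cell wall, 1 was lower (9.09%, against 4.25% of all kept). It was EXPB3, at 828, 1032 and 523 with One-Direct against 1658, 3368 and 4688 with Pico (-1.94, SE 0.51, adjusted p = 0.0495). EXPA4 read 826, 2490.0 and 2293 with One-Direct against 3770.4, 4422 and 7000.4 with Pico (adjusted p = 0.116). Of the nuclear photosynthesis genes 6 of 7 were kept and 0 called by limma, with 1 lower at an unadjusted p under 0.05. Their median difference was -1.39, and -0.69 without Pico sample 2. The lists of heat shock proteins (4 kept), proteasome subunits (4), wound and touch response genes (6), cytochromes P450 (7), beta-glucosidases (7), glucosinolate synthesis genes (3), and WRKY, NAC, MYB and ERF factors (5) had no call by limma either, with medians between -0.58 and 0.15. At an unadjusted p under 0.05, 3 of their genes were lower and 0 higher, against 3134 of all 12151 kept probe sets in either direction. The peroxidase and subtilase lists had 1 kept gene each, the auxin list and the nuclear noncoding RNA list 0, and no aquaporin was named on the array.

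**Figure D2:**
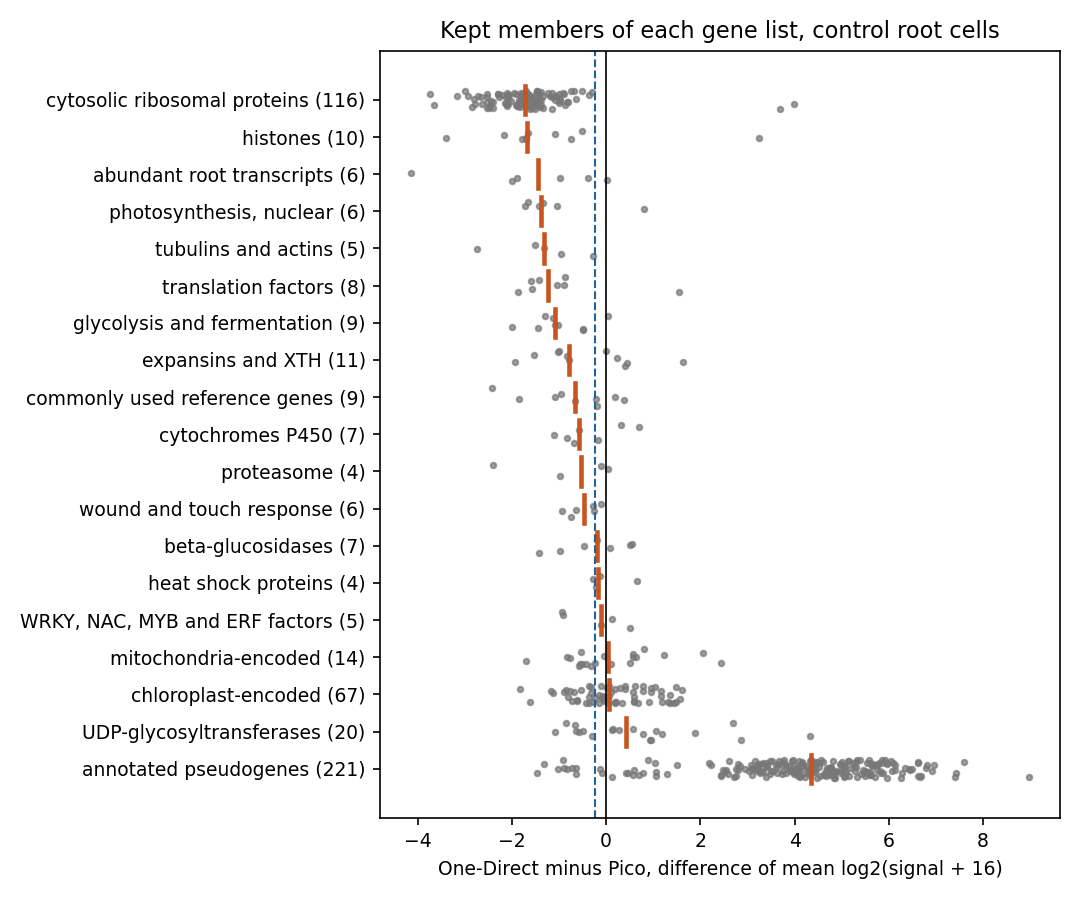
One-Direct minus Pico difference of mean log2(signal + 16) for each kept member (grey points) of 19 gene lists in control root cells, with the list median in orange, 0 as the solid line and the median of all kept probe sets (-0.25) as the dashed line. The number of kept members stands after each list name. Ribosomal proteins have a median of -1.71, chloroplast-encoded genes run from -1.82 to 1.62. Kept pseudogenes have a median of 4.35, but 188 of the 221 passed the filter through One-Direct alone, and over all 989 on the array the median is 1.62.

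Single genes with the largest difference towards Pico included secreted and wall-related proteins. AT1G04680, a pectate lyase-like protein, read 17.98, 226 and 455 with One-Direct and 1475, 2470.1 and 3799 with Pico (-3.95, SE 0.91, adjusted p = 0.0315). AT5G01870, a lipid transfer protein, read 76.8, 80.9 and 184 with One-Direct against 4720.3, 1295 and 955 with Pico (-3.90, SE 0.65, adjusted p = 0.00802). AT5G20950, a family 3 glycosyl hydrolase, read 15.03, 52.9 and 24.04 with One-Direct against 458, 322 and 639 with Pico (-3.42, SE 0.47, adjusted p = 0.00289). All 3 One-Direct samples lay below all 3 Pico samples in each, which was a condition of their choice. AT2G43610, of the chitinase family, read 143, 25.02 and 37.1 with One-Direct and 1146, 352 and 1372 with Pico. AT1G67860 and AT1G64370 completed the 12 largest, with differences of -3.94 and -3.67. In AT1G67860, as in AT1G09750, Pico sample 2 was the highest by more than 3-fold.

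Among genes with a symbol and a mean signal of at least 50 with both kits, EIN3, the transcription factor at the end of ethylene signalling, read 245, 877 and 183 with One-Direct and 3375, 2541 and 2082 with Pico (-2.87, SE 0.60, adjusted p = 0.0217). RAB6A, a small GTPase of Golgi traffic, read 88.8, 421 and 206 with One-Direct against 2224, 1320.3 and 1467 with Pico (-2.92, SE 0.57, adjusted p = 0.0161). NUP1, a nucleoporin of the nuclear pore basket, read 20.05, 88.7 and 66.2 with One-Direct against 679, 390.1 and 771 with Pico (-3.16, SE 0.52, adjusted p = 0.007597). One-Direct sample 1 gave the lowest value in NUP1 and RAB6A, and sample 3 in EIN3. ARA12, a subtilisin-like protease, read 87.7, 161 and 82.9 with One-Direct and 677, 1143 and 563 with Pico (-2.67, SE 0.45, adjusted p = 0.008798). NCRK, AR791, IMP4, UBC30 and bZIP44 were lower by the same rule, with differences of -3.28, -2.89, -2.59, -2.52 and -2.41.

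In the other direction, AtLEA4-1 was the protein-coding gene with a symbol that had the largest difference towards One-Direct among those with a mean signal of at least 50 with both kits. This late embryogenesis abundant protein, known from drying seeds, read 1932, 1450.1 and 1478 with One-Direct and 60.3, 108 and 20.98 with Pico (4.52, SE 0.51, adjusted p = 0.00122). M17, another protein of late seed development, read 902, 519.7 and 978 with One-Direct against 1.99, 225 and 38.02 with Pico (3.68, SE 0.86, adjusted p = 0.0328). LEA (AT2G21490), a dehydrin, read 1543, 253 and 296 with One-Direct against 35.8, 115 and 28.5 with Pico (2.92, SE 0.75, adjusted p = 0.0459). The call for M17 was lost under 6 and that for LEA under 8 of 16 alternatives, whereas that for AtLEA4-1 was lost under 0. On the technical arrays of the split samples M17 read 303, 149 and 2907 with One-Direct and 194, 187 and 312 with Pico. LEA read 592, 289 and 89.1 with One-Direct against 154, 101 and 97.8 with Pico, so the kits overlapped in both genes. AtLEA4-1 did not overlap, at 1799, 1273 and 1331 with One-Direct against 202, 55.1 and 107 with Pico. Giant cells showed the same order for AtLEA4-1, at 849.6, 2384 and 2398 with One-Direct and 10.4, 18.6 and 21.4 with Pico.

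OTP43, needed for splicing of a mitochondrial transcript, read 5097, 1747 and 3057 with One-Direct and 148, 202 and 216 with Pico (3.90, SE 0.48, adjusted p = 0.00176). OTP86, an editing factor of the chloroplast, read 539, 528 and 392 with One-Direct against 67.6, 30.8 and 90.9 with Pico (2.73, SE 0.45, adjusted p = 0.00699). Of 20 kept UDP-glycosyltransferases of 47, which attach sugars to hormones and secondary metabolites, 2 were higher with One-Direct (10.0%, against 5.94% of all kept), 0 were lower and the median was 0.42. UGT84B2 read 804, 242 and 483 with One-Direct and 2.75, 9.68 and 11.2 with Pico (4.33, SE 0.50, adjusted p = 0.00138), and UGT85A7 read 3888, 1024 and 513 with One-Direct against 136, 201 and 152 with Pico (2.87, SE 0.70, adjusted p = 0.0379). UGT84B2 passed the filter through the One-Direct samples alone. Without the filter, 21.3% of the 47 had all One-Direct samples above all Pico samples (17.7% of all probe sets) and 10.6% below them (14.7%). UGT78D1 read 3963, 1376 and 2486 with One-Direct against 90.2, 2000.3 and 223 with Pico, with Pico sample 2 inside the One-Direct range, and was not called (adjusted p = 0.136). MSRB6, XCT, HEMA3 and XIH were higher as well, with differences of 2.77, 2.48, 2.09 and 1.91.

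Annotated pseudogenes were the class in which the kits differed most. The array holds probe sets for 989 of them, and their median signal was 98.4, 90.2 and 91.2 in the One-Direct samples against 12.5, 15.4 and 12.2 in the Pico samples. The median signal of protein-coding probe sets was 149, 189 and 200 with One-Direct and 168, 174 and 176 with Pico, so the kits overlapped there. Without any filter, 57.9% of pseudogenes had all 3 One-Direct samples above all 3 Pico samples, against 17.7% of all probe sets and 16.9% of protein-coding ones. Their median difference without the filter was 1.62, against 0.01 for all probe sets. Of the 989, 351 were called higher in the unfiltered test, against 6.67% of all probe sets, and 0 lower. Only 221 passed the filter, and 188 of them did so through the One-Direct samples alone. Of the 221, 197 were higher with One-Direct (89.1%, against 5.94% of all kept) and 0 lower (3 at an unadjusted p under 0.05). Leaving out any 1 sample gave between 181 and 199 higher calls. As the filter was not redone without that sample, this range is no separate support.

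All 12 of the genes with the largest difference towards One-Direct are annotated pseudogenes. AT2G06480 read 25478, 11519 and 14968 with One-Direct and 30.3, 1.44 and 27.1 with Pico (8.97, SE 0.53, adjusted p = 0.000197). On the technical arrays of the split samples it read 10394, 10660.5 and 13793 with One-Direct and 1.29, 1.12 and 1.91 with Pico. AT3G30670 read 2202, 4169 and 5527 with One-Direct and 1.72, 3.83 and 4.64 with Pico (7.59, SE 0.45, adjusted p = 0.000197). In both genes every One-Direct sample was bright and every Pico sample was at the floor of the array. AT4G05640 read 6639.9, 4237 and 3948 with One-Direct against 11.4, 23.5 and 4.28 with Pico (7.43, SE 0.44, adjusted p = 0.000197). AT4G10580 was measurable with both kits, at 22029, 12255 and 13155 with One-Direct and 105, 102 and 245 with Pico (6.62, SE 0.48, adjusted p = 0.000297). The other 8, AT3G32020, AT1G36550, AT1G32840, AT3G31970, AT4G04010, AT2G06430, AT2G03080 and AT2G14650, had differences between 6.62 and 7.40. AT4G04430, which ranks among the brightest found with One-Direct alone, read 9522, 1609 and 903 with One-Direct and 27.8, 43.4 and 46.2 with Pico.

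**Figure D3:**
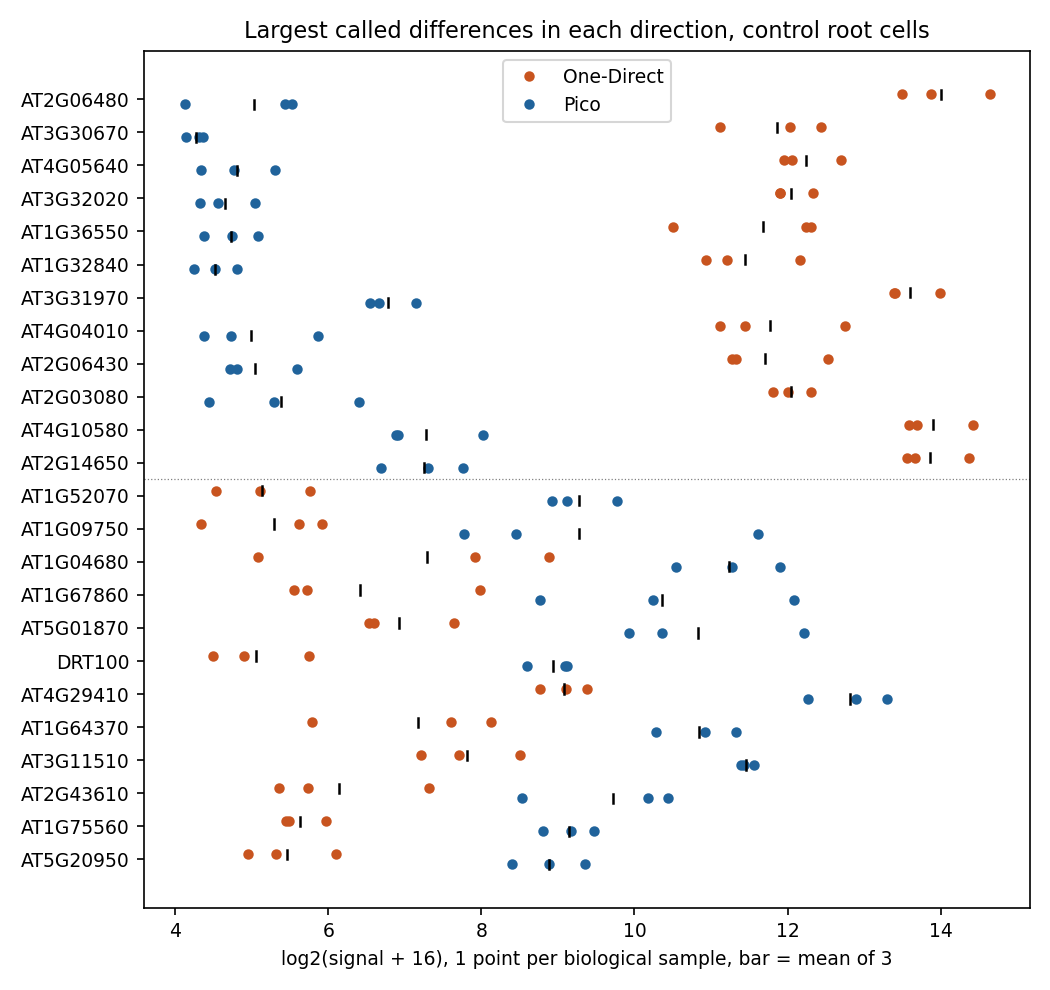
Log2(signal + 16) in each biological sample of control root cells for the 12 genes with the largest called difference towards One-Direct (above the dotted line) and towards Pico (below it), with points for samples and bars for means of 3. The upper 12 are all annotated pseudogenes, and the samples of the kits do not overlap in any of the 24 genes, which was a condition of their choice.

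Probe sets that can bind more than 1 transcript were over-represented here. Affymetrix marks them with the suffix _s_at or _x_at, and among kept probe sets 90.2% of 82 _x_at and 20.8% of 582 _s_at were higher with One-Direct, against 4.59% of 11487 ordinary _at probe sets. These shares overlap with the pseudogenes: 63 of the kept _x_at and 46 of the kept _s_at probe sets are pseudogenes, of which 63 and 44 were higher. Of all 221 kept pseudogenes, 188 passed the filter through One-Direct alone. Of the 989 pseudogene probe sets 798 carried the ordinary suffix, and 51.6% of these had all One-Direct samples above all Pico samples. The shares were 75.2% of 113 _s_at and 97.4% of 78 _x_at. The pseudogene difference was therefore present in probe sets without the mark, with a median of 1.25 over the 798, and was larger in marked ones, with medians of 2.99 and 4.97. Which of several related transcripts gave the signal was not tested.

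**Figure D4:**
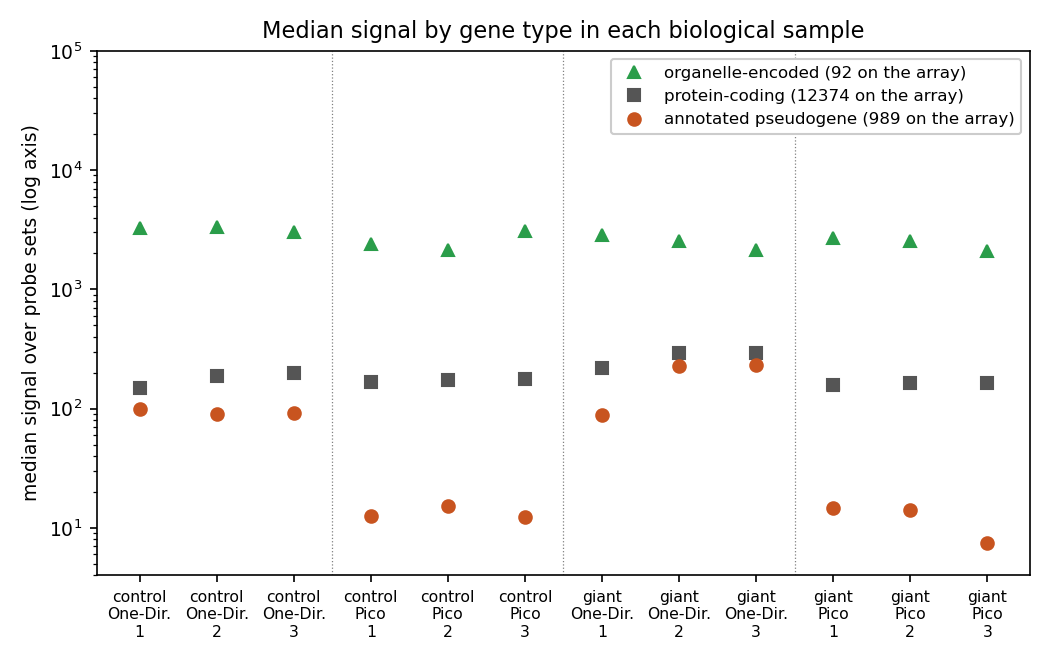
Median signal (log axis) over all probe sets of 3 gene types in each of the 12 biological samples. Pseudogene medians lie between 88.7 and 230.0 in the One-Direct samples and between 7.52 and 15.4 in the Pico samples of both cell types, whereas protein-coding medians lie between 149 and 292 and organelle-encoded ones between 2089 and 3299.

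Differences of organelle transcripts lay on both sides of 0, and the shares of chloroplast-encoded genes called were near or below those of all kept probe sets. Of 69 chloroplast-encoded genes 67 were kept, and their differences ran from -1.82 to 1.62 with a median of 0.05, which is 0.30 above that of all kept probe sets. Higher calls numbered 4 (5.97%, against 5.94% of all kept) and lower calls 1 (1.49%, against 4.25%). At an unadjusted p under 0.05 the numbers were 15 and 5, against 3134 of all 12151 kept probe sets in either direction. All One-Direct samples lay above all Pico samples in 31.9% of the 69 (17.7% of all probe sets) and below them in 15.9% (14.7%). The median turned to -0.05 under median centring and was 0.41 under quantile normalisation. rpoB, a subunit of the plastid RNA polymerase, read 5381, 4468 and 4328 with One-Direct and 1270.3, 1672 and 1656 with Pico (1.62, SE 0.38, adjusted p = 0.03200). rps2, a plastid ribosomal protein, read 3375, 4464 and 3550.3 with One-Direct against 1309.8, 1432 and 1377 with Pico (1.45, SE 0.37, adjusted p = 0.0449). psaI, a small subunit of photosystem I, went the other way, at 821, 1065 and 854 with One-Direct against 4012, 2049.5 and 4163 with Pico (-1.82, SE 0.43, adjusted p = 0.0349). All 5 chloroplast calls were lost when any 1 sample other than One-Direct sample 1 was left out. psbF, part of cytochrome b559 of photosystem II, read 13304, 9559 and 9679 with One-Direct and 25091, 25151 and 20050.5 with Pico and was not called (adjusted p = 0.109).

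Of 16 mitochondria-encoded genes 14 were kept, 1 was lower (7.14%, against 4.25% of all kept) and 0 were higher, with a median of 0.03. That call was lost under 9 of 17 alternatives, among them each omission of a sample other than One-Direct sample 1. nad1, a subunit of respiratory complex I, read 4099, 3946 and 4261 with One-Direct and 13875, 9028 and 18714 with Pico (-1.69, SE 0.42, adjusted p = 0.0396). cox2, of cytochrome c oxidase, read 4159.6, 3737 and 3659 with One-Direct against 2388, 1445 and 3009 with Pico (difference 0.81, adjusted p = 0.268). The signs of the mitochondrial median also turned between alternatives, from -0.14 to 0.25.

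Gene length went with the calls. The protein-coding genes with a kept probe set were ranked by genomic span, introns included, and parted into 4 classes of 1572, 1571, 1563 and 1568 genes. Higher calls made up 10.1%, 4.96%, 2.24% and 1.28% of the classes from the shortest to the longest. Lower calls made up 7.19%, 3.69%, 3.14% and 3.13%. The shortest class held 76 of the 116 kept ribosomal protein genes and the next 36. Its median difference was -0.30 with these genes and -0.25 without them.

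Pico signals were the more repeatable at both levels of replication. The median SD of log2(signal + 16) over the 3 technical arrays of 1 split sample was 0.702 for One-Direct and 0.350 for Pico. Over the 3 biological samples, with 1 array each, it was 0.789 and 0.446. As 1 sample per kit was split, these technical SDs were not tested. For probe sets over 1000 the technical SDs were 0.368 and 0.195, and for those of 50 to 200 they were 0.880 and 0.474. Ribosomal protein genes had technical SDs of 0.438 with One-Direct and 0.191 with Pico. Chloroplast-encoded genes were the exception among the groups examined, at 0.147 with One-Direct and 0.190 with Pico. Correlations between technical arrays ran from 0.752 to 0.843 for One-Direct and from 0.937 to 0.949 for Pico.

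**Figure D5:**
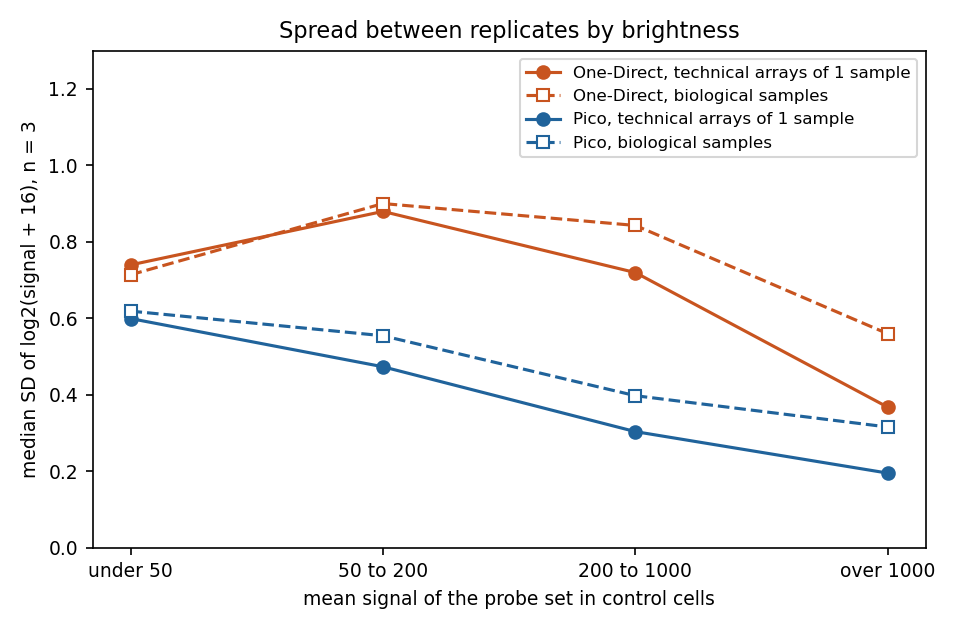
Median SD of log2(signal + 16) over 3 technical arrays of 1 split sample (filled circles) and over 3 biological samples (open squares) for control root cells, by mean signal of the probe set (horizontal axis). One-Direct lies above Pico in every class, and the SD over technical arrays is 0.368 against 0.195 for probe sets over 1000.

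The kit difference in giant cells, whose samples are separate from those above, had the same sign as in control cells for most probe sets. Across the 12151 kept probe sets the differences in control and giant cells had a Pearson r of 0.764 and a Spearman rho of 0.643, as a description across probe sets that share their arrays. The sign was the same for 73.0% of all kept probe sets and for 97.3% of those called in control cells. Over all 989 pseudogene probe sets the median signal in giant cells was 88.7, 228 and 230.0 with One-Direct and 14.6, 14.1 and 7.52 with Pico. Ribosomal protein genes had a median difference of -1.71 in control and -1.37 in giant cells. The medians of the abundant root list (-1.44 in control and 0.52 in giant cells) and of cytochromes P450 (-0.58 and 0.92) changed sign. With the interaction tested over all 12 samples, 5 of 12151 probe sets differed between cell types in their kit difference (0.0411%), and 1111 at an unadjusted p under 0.05. With groups of 3 samples, so few calls do not show that the kit difference was equal in the cell types. Of the 5 called probe sets, 2 have a gene listed, AT1G52070 and AT1G62422. In giant cells alone, the kits differed at 28.2% of these probe sets.

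AT1G52070, the lectin that only Pico recovered in control cells, was the named gene with the largest such difference. In giant cells it read 20.6, 72.4 and 139 with One-Direct and 15.6, 4.22 and 37.96 with Pico, so its Pico signal was high in control cells alone. Its difference was -4.14 in control and 1.29 in giant cells (interaction -5.43, SE 0.77, adjusted p = 0.0351). AT1G62422, a protein of unknown function, read 112, 209 and 185 with One-Direct and 387, 142 and 264 with Pico in control cells, where the kits overlapped. In giant cells it read 462, 447 and 459 with One-Direct against 38.6, 27.7 and 54.5 with Pico (interaction -3.63, SE 0.56, adjusted p = 0.0488).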

How the data were processed

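Per the submitters' processing notes, the authors made the deposited signal intensity values with Affymetrix Expression Console and MAS5; software versions were not given in the sources used here. On each array the mean after trimming 2% at each end was about 500, and arrays were rescaled to 500.032. The number of arrays limits the precision. Tests excluded the array's 64 control probe sets. Technical arrays were averaged on the log2(signal + 16) scale, which understates the change of dim probe sets.

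The 6 control samples were fitted alone with limma 3.58.1 in R 4.3.3 (lmFit, eBayes, two-sided, Benjamini-Hochberg, threshold 0.05), and the difference between cell types with all 12 samples. The text calls these adjusted p-values. The fit was also run on simulated data, in which all probe sets of a kit had the same spread. Array measures were compared with an exact permutation test in SciPy 1.17.1.

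Of 22746 probe sets 13513 were listed with 1 gene, 503 with several and 8730 not listed; names and gene types came from the platform annotation and a RefSeq table of assembly TAIR10.1. Probe sets with several genes gave no gene names. Where a gene had several probe sets, the brightest stood for it. List members are genes named on the array, so lists are incomplete. Named genes were the 12 largest called differences in each direction without overlap between kits, the 10 in each direction among protein-coding genes with a symbol and a mean signal of at least 50 with both kits, the 10 brightest, the 6 brightest found with 1 kit only, the 4 with the smallest p of each list, and the named genes of the interaction. The members, lists and rules were chosen with earlier results of these data known, and several lists were written out by gene identifier after the annotation was seen.

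Same-numbered samples of the kits had correlated deviations of 0.162, 0.0887 and 0.0647, so the numbers were not taken as pairs. Alternatives covered the pseudocount, filter, normalisation, samples in the fit, weights, technical arrays, the replicate number as a block, each sample left out in turn, and the cut-offs of the recovery classes.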

Additional observations from a re-analysis of the deposited data

Results flagged for a closer look

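For 5 probe sets the kit difference in control cells differed from that in giant cells by the test of that difference itself (limma, 12 samples, adjusted p under 0.05). Values are the difference One-Direct minus Pico in control cells less that in giant cells, on the log2 scale. All 5 are negative, and in all 5 every giant cell sample amplified with Pico read 54.5 or less. AT1G52070 had -5.43 (SE 0.77, adjusted p = 0.0351), and the call was lost under 10 of 18 alternatives. AT1G62422 had -3.63 (SE 0.56, adjusted p = 0.0488), lost under 13 of 18. The other 3 have no gene listed here. Probe set 266712_at had -5.17 (SE 0.65, adjusted p = 0.0273), with control signals of 449.7, 487 and 249 with One-Direct and 718, 636 and 392 with Pico, and giant cell signals of 412, 1159 and 943 with One-Direct against 13.3, 31.3 and 7.27 with Pico. Probe set 264497_at had -4.56 (SE 0.70, adjusted p = 0.0488), with control signals of 36.4, 135 and 23.8 with One-Direct against 423, 258 and 300.2 with Pico. Probe set 266500_at had -4.14 (SE 0.58, adjusted p = 0.0351), with control signals of 33.5, 123 and 79.8 with One-Direct against 328, 264 and 287 with Pico. The calls of the unnamed probe sets were lost under 9, 15 and 10 of 18 alternatives, and the sign of none of the 5 changed. Groups of 3 samples were too small to examine single samples for outlying values.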

How the results depend on the processing

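No probe set called in the control cell comparison was called in the opposite direction under any alternative, and no named gene's called difference changed sign. Of 66 called named genes 30 were called under every alternative, and over 1069 gene and alternative pairs 863 kept the call and 206 lost it. The counts were less stable than the directions. The 1238 calls (722 higher, 516 lower) became 1993 with no filter (1518 higher, 475 lower), 369 with a stricter filter that needs all 6 samples (86 and 283), 2433 with all 12 samples in the fit (1073 and 1360) and 2027 with sample quality weights (939 and 1088). With the replicate number as a block the calls were 658 higher and 327 lower; each sample's deviations were closest to those of its own number in the other kit, which is a hint from the data and not from the design. Leaving out 1 sample gave 521 to 1799 calls, 448 to 897 higher and 54 to 902 lower.

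The 5 probe sets with a kit difference that depended on cell type became 2, 0, 0, 3, 53 and 2 with a pseudocount of 1, a pseudocount of 64, quantile normalisation, median centring, sample quality weights and the replicate block, and 0 to 65 with 1 sample left out. With recovery set at 400 both kits recovered 3759, One-Direct alone 120 and Pico alone 2; with dim set at under 25 One-Direct alone recovered 135 and Pico alone 0; quantile normalisation left 14 for Pico alone. Leaving out 1 sample gave 6310 to 7637 for both, 305 to 376 for One-Direct alone and 7 to 45 for Pico alone. The cause of these shifts was not tested, beyond fewer samples or other probe sets entering. A signal under 50 is near the floor of the array, so the size of differences for dim probe sets is the least certain.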
